A study of Homo sapiens with 6 samples.

Results

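The translation initiation and elongation factors of human cells were followed in cells targeted at TFDP1 and in control cells. The members were the rows whose gene symbol begins with EIF and a digit from 1 to 6, or with EEF and 1 or 2, leaving out antisense genes and symbols that end in P and a digit. The rule gave 56 of 15794 genes. Its letters also leave out EIF4EBP1 and EIF4EBP2, which are protein coding genes and not pseudogenes, and their values are given separately below.

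RNA came from eHAP, an engineered haploid human cell line. In the TFDP1 knockout group (3 samples), Cas9-expressing cells received a plasmid with guide RNAs against TFDP1 and with puromycin resistance, were selected with puromycin from 24 to 72 h and were collected at 5 days. The control group (3 samples) is labelled wild type with no knocked-out gene; the protocol text, which describes Cas9 expression, transfection and selection, is given for all 6 samples, and what the control plasmid carried is not stated. The cells of a sample were a selected pool as far as the labels say, with no cloning step described, so that edited and unedited cells may be mixed, and 500000 eHAP cells were mixed with 10000 Drosophila S2 cells before extraction of polyadenylated RNA. TFDP1 encodes DP1, the partner with which E2F transcription factors bind the promoters of cell cycle genes, and the comparison addressed which transcripts differ when TFDP1 is targeted.

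Translation of most messages starts when initiation factors load the initiator tRNA on the small ribosomal subunit, bring that subunit to the capped end of the message and let it scan to a start codon. Elongation factors then deliver each further tRNA and move the ribosome along. Many of the messages for elongation factors, for ribosomal proteins and for some initiation factors begin with a run of pyrimidines, the terminal oligopyrimidine (TOP) tract, through which mTOR signalling controls their translation. In proliferating cells these factors are among the most abundant messages.

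The start of the message is shown for the 12 members whose annotated start is a C that opens a run of at least 5 C or T bases, because this tract is the shared sequence feature of the family. Each line gives 10 bases before the start and 20 bases from it, with the pyrimidine run in capitals, from RefSeq on GRCh38.p14.
EEF1A1, chr6:73521013-73521042, minus strand: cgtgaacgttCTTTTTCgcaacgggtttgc
EEF1B2, chr2:206159885-206159914, plus strand: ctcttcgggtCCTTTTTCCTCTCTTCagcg
EEF2, chr19:3985444-3985473, minus strand: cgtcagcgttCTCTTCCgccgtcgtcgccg
EIF2S3, chrX:24054946-24054975, plus strand: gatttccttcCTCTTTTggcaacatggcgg
EIF3F, chr11:7987327-7987356, plus strand: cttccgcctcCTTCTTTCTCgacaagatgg
EIF4B, chr12:53006446-53006475, plus strand: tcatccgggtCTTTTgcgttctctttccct
EIF2A, chr3:150546777-150546806, plus strand: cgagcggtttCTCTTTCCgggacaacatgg
EIF2D, chr1:206612446-206612475, minus strand: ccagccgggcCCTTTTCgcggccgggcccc
EIF3D, chr22:36529147-36529176, minus strand: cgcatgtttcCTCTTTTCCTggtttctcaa
EIF3K, chr19:38619178-38619207, plus strand: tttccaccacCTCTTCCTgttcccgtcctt
EIF3M, chr11:32583821-32583850, plus strand: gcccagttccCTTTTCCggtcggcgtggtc
EIF4A2, chr3:186783567-186783596, plus strand: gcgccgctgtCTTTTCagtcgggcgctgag
The first 6 genes of these lines are known TOP messages. Such a start stood in 12 of 62 windows of the 46 members with a RefSeq promoter window, or 19.4%, against 4.07% of all 35116 windows. It describes the annotated start only, since the start used in eHAP cells was not measured here.

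Promoter windows, from 250 bases before the annotated start to 50 after it, are shown for the member with the smallest p in each direction and for the called member that holds an E2F-like word. EIF4G2 is the member on the positive side, with both of its annotated windows. EEF2 is the member on the negative side. EEF1A1 is shown as the gene of the copy pair with the widest gap, and EEF1A2 is its other gene. In EEF2 and EEF1A1 the pyrimidine run at the start is in capitals, and in EEF1E1 the word TTTGGCGC. All are on GRCh38.p14, from RefSeq.
EIF4G2, chr11:10808877-10809176, minus strand: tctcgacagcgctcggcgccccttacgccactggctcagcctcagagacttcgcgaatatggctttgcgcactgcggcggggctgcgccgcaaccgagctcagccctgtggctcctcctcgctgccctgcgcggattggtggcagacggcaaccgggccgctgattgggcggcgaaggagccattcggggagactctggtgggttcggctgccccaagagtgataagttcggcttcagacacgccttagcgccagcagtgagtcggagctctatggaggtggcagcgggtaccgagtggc
EIF4G2, chr11:10807947-10808246, minus strand: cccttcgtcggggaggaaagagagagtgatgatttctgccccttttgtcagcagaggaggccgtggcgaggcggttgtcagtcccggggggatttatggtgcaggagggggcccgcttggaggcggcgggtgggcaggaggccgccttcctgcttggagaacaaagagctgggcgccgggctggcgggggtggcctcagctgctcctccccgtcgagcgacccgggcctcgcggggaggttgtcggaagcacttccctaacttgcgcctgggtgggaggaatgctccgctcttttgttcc
EEF2, chr19:3985414-3985713, minus strand: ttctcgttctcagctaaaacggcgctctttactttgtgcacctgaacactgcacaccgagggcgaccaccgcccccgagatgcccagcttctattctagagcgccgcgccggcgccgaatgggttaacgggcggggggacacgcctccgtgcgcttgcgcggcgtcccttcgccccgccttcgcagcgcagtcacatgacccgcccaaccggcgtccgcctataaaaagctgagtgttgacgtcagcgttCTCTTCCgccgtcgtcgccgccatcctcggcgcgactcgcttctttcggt
EEF1A1, chr6:73520983-73521282, minus strand: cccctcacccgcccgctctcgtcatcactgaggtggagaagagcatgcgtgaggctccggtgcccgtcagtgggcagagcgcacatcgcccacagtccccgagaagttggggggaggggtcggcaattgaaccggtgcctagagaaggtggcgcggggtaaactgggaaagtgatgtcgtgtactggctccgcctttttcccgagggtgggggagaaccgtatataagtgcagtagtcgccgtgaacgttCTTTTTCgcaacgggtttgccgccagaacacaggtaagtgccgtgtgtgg
EEF1E1, chr6:8102499-8102798, minus strand: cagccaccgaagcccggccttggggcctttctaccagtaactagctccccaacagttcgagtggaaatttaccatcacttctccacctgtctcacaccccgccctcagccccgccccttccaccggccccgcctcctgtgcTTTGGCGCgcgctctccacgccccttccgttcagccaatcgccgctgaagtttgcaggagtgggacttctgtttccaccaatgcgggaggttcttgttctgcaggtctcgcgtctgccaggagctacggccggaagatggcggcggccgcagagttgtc
The words searched on both strands were TTTGGCGC, TTTCCCGC, TTTCGCGC and GGCGGGAA, and the second and the last can overlap in a promoter. At least 1 of them stood in 3 of the 62 member windows, or 4.84%, against 5.03% of all windows and 7.26% of the 16440 windows of genes in the expression table. TTTGGCGC occurred once, in EEF1E1, and in 0.652% of all windows. GGCGGGAA occurred in EEF1B2 and EIF4E3 and in 3.16% of all windows. The others occurred in none of the member windows and in 1.63% (TTTCCCGC) and 0.515% (TTTCGCGC) of all windows.

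All levels, fold changes and adjusted p-values come from the authors' deposited table unless a recomputed test is named. Levels there are means in CPM, a transcript's reads scaled to a fixed library total. With no values per sample in hand, library depth is unknown and no fold change carries a replicate error. The size of each log2 fold change over the root of its likelihood ratio served as an approximate standard error. The sources used here do not say which group is on top of the ratio. TFDP1 itself, at 226 CPM, differed 2.25-fold, a log2 fold change of 1.17 (adjusted p = 1.08e-283) per the authors' deposited table. Cas9 editing can leave the level of the edited transcript as it was or raise it, so TFDP1 does not settle the direction. Genes are accordingly called positive where they were higher on the side that had more TFDP1 transcript, and negative where they were lower there. CPM values are relative to a library total, and the sources used here do not say whether Drosophila reads entered the scaling. In a pool of cells, fewer cells with a transcript and less of it per cell cannot be told apart. Of 12 blood cell markers listed, 5 had a row in the authors' deposited table, with a median of 0.292 CPM; the line descends from a leukaemia line. All 4 fibroblast markers and all 3 epithelial markers with a row were called negative there, at 2.30 to 59.0 CPM and 0.515 to 40.0 CPM. Of 3 neuronal markers 2 were negative and 1 positive, and of the 5 blood markers 1 was positive and 1 negative. Over all genes, 17.3% were called positive and 22.2% negative. The part of such differences in the values of the translation factors was not tested.

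Translation factors differed by small amounts and in both directions. Of the 56 members, 31 passed in the authors' deposited table at an adjusted p under 0.05, against a background of 39.5% of all genes called. Of the 31, 16 were positive (background 17.3%) and 15 negative (background 22.2%). The members were abundant, with a median of 212 CPM against 23.5 CPM for all genes, and abundant genes were called more often. Of genes no less abundant than the median gene, 51.9% were called (25.4% positive and 26.5% negative), and 30 of the 52 members that abundant were, 15 in each direction. The members' log2 fold changes ran from -0.45 to 0.32 in the authors' deposited table with a median of 0.01, beside a median of -0.03 over all genes. The median called member differed by 1.11-fold, against 1.197-fold for called genes of at least median level. A change of at least 1.2-fold was called for only 3 members, EEF1A2, EIF2AK2 and EEF1E1, or 5.36% of them, against 25.7% of all genes and 25.3% of those of at least median level. By that rule 2 members were positive and 1 negative (backgrounds 10.4% and 15.3%), and an adjusted p under 0.01 called 20 members, 11 positive and 9 negative (backgrounds 30.5%, 13.1% and 17.4%). Together the members held 22465 CPM, or 2.25% of the scale, and EEF2 and EEF1A1 made up 31.2% of that.

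**Figure D1:**
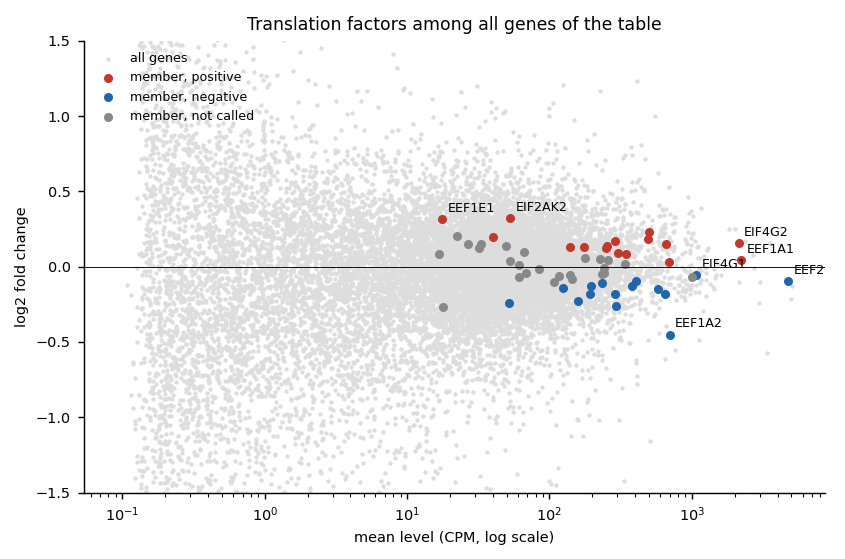
Deposited log2 fold change (y axis, genes beyond 1.5 in either direction not drawn) against mean level in CPM (x axis, log scale), with all genes in light grey and translation factors as larger points coloured by their call. The members sit at 16.9 to 4772 CPM and within -0.45 and 0.32 of log2 fold change.

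The balance of the directions depended on the zero point. Whether human or Drosophila reads set the deposited zero is not stated in the sources used here. As deposited, 51.6% of the called members were positive, 16 against 15. With fold changes centred on the median gene and the test recomputed from the approximate errors, 21 were positive and 11 negative (65.6% positive). Centred on the median of 78 ribosomal protein genes, which stood at -0.08, 27 were positive and 5 negative (84.4% positive). The backgrounds of called, positive and negative genes were then 40.9%, 20.4% and 20.5% for the median gene and 42.8%, 26.7% and 16.1% for the ribosomal protein centre. Centring on the median gene ended the calls of EEF1D, EIF3G, EIF5B and EIF6. Centring on the ribosomal proteins ended those and the calls of EIF3D, EIF2B4, EIF2AK4, EIF3K and EIF2S3, all negative as deposited. It also turned EIF4G1 to 0.0238. That value was counted as positive with an error of 0.0049, where the median error at its level was 0.0425. Likewise EEF2 at -0.0118 was counted as negative with an error of 0.000258, against a median of 0.0371.

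**Figure D2:**
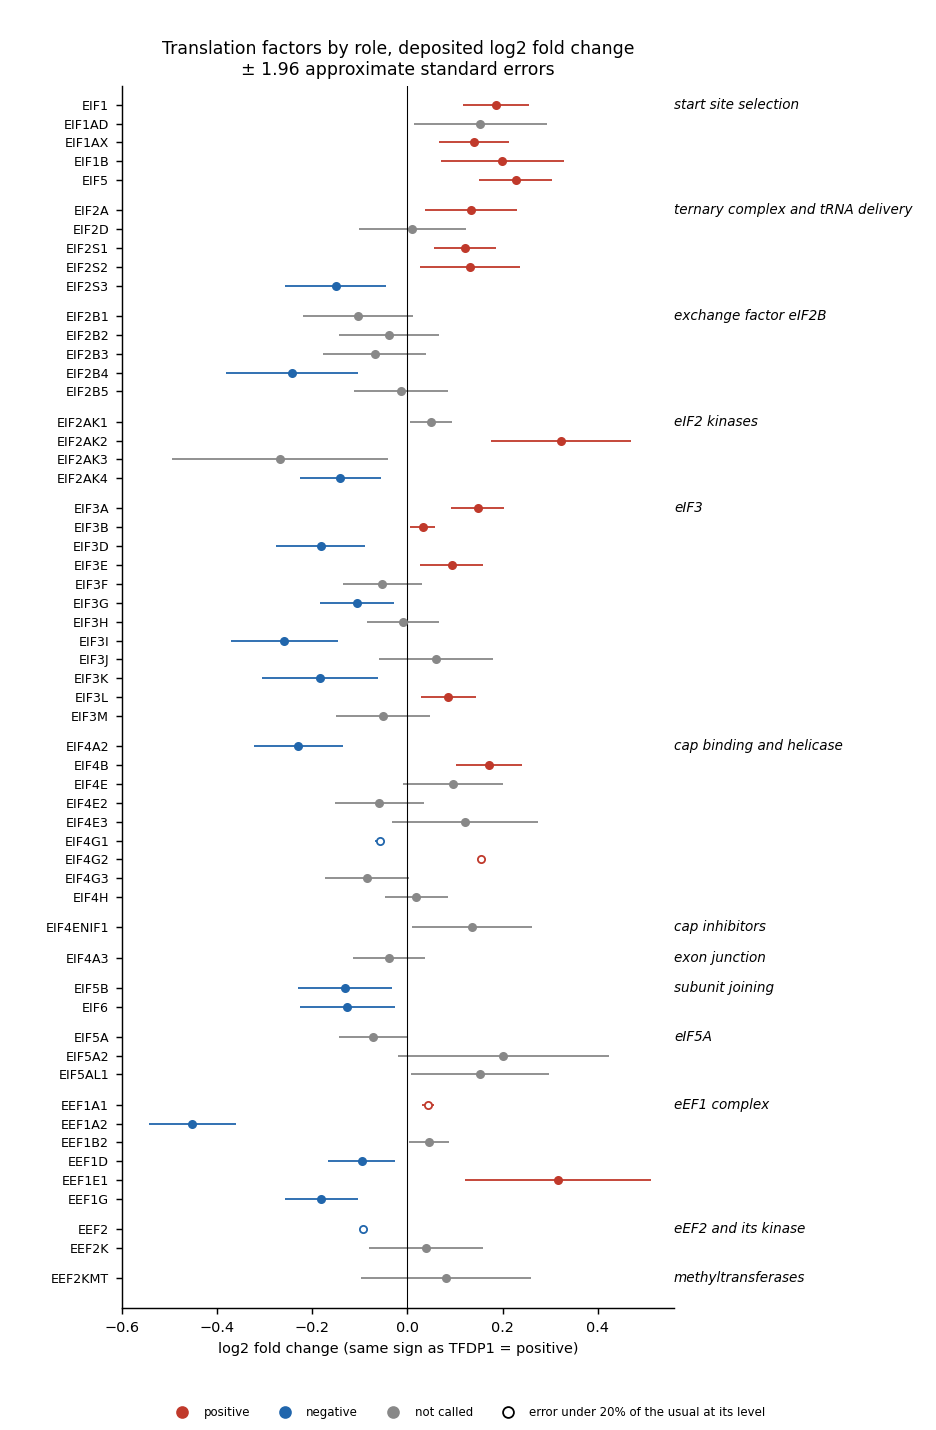
Deposited log2 fold change of each of the 56 members, grouped by role, with bars for approximate 95% bounds and colours for the call at an adjusted p of 0.05. Open circles mark 4 genes whose approximate error was under 20% of the median error of genes of like level. The genes grouped under start site selection lie to the right of 0 and those of eIF2B to the left, while eIF3 and the eEF1 complex spread to both sides.

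Of the 5 genes grouped under start site selection, 4 were called, all positive, around a median log2 fold change of 0.19 for the 5. Positive calls made up 17.3% of all genes, 25.4% of those of at least median level and 38.0% of such genes under 45% GC, and EIF1AX, EIF5 and EIF1B are under 45% GC. EIF5, the GTPase activator that acts on eIF2 when the start codon is met, had a log2 fold change of 0.23 ± 0.039 (approximate standard error, as are all errors given with ±) at 504 CPM (adjusted p = 8.06e-08) per the authors' deposited table. With trends on length and GC removed EIF5 was at 0.11 and still called (adjusted p = 0.0161). EIF1, which guards the accuracy of start codon choice, was at 0.19 ± 0.035 (adjusted p = 1.09e-06), and its close relative EIF1B at 0.20 ± 0.066 (adjusted p = 0.00932) per the authors' deposited table. EIF1 and EIF1B thus lay within their errors of each other at 490 and 39.8 CPM. EIF1AX, the X-linked gene of eIF1A, which helps bind the initiator tRNA, was at 0.14 ± 0.038 (adjusted p = 0.00109) per the authors' deposited table, but at -0.0076 once the trends of fold change on length and GC content were taken out. EIF1AD, placed in this group only for its eIF1A-like domain, was at 0.15 ± 0.071 and did not pass (adjusted p = 0.0838) per the authors' deposited table.

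The subunits of eIF2, the carrier of the initiator tRNA, did not share a direction. EIF2S1, the alpha subunit that stress kinases phosphorylate, was positive at 0.12 ± 0.033 (adjusted p = 0.00142) and EIF2S2, the beta subunit, at 0.13 ± 0.053 (adjusted p = 0.0426) in the authors' deposited table. EIF2S3, the X-linked gamma subunit that binds GTP and the tRNA, was negative at -0.15 ± 0.054 at 576 CPM (adjusted p = 0.0186) per the authors' deposited table. With the length and GC trends removed, EIF2S1 was at 0.01 and no longer called (adjusted p = 0.836), whereas EIF2S3 was at -0.18 and EIF2S2 at 0.13. EIF2A, a separate factor that can deliver tRNA and is no subunit of eIF2, was positive at 0.13 ± 0.049 (adjusted p = 0.0232) per the authors' deposited table, but not called with the trends removed, at 0.0846 (adjusted p = 0.17). EIF2D, another tRNA delivery factor, was at 0.01 ± 0.057 (adjusted p = 0.917) per the authors' deposited table.

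All 5 subunits of eIF2B, the exchange factor that reloads eIF2 with GTP, had negative values as deposited, but EIF2B5 lay above 0 when centred on the median gene and EIF2B2, EIF2B3 and EIF2B5 when centred on the ribosomal proteins. Only EIF2B4 was called as deposited. EIF2B4, the delta subunit, was at -0.24 ± 0.071 (adjusted p = 0.00292) per the authors' deposited table and at -0.24 after removal of the trends. The others ran from -0.10 (EIF2B1) to -0.01 (EIF2B5). These 5 genes lay at similar levels of 51.7 to 107 CPM.

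The kinases that phosphorylate eIF2 alpha and so slow initiation went different ways. EIF2AK2, or PKR, the kinase activated by double-stranded RNA, was positive at 0.32 ± 0.075 (1.25-fold) at 52.9 CPM (adjusted p = 1.01e-04) per the authors' deposited table, the highest value of any member, and at 0.14 with the trends removed (adjusted p = 0.139). EIF2AK4, or GCN2, which senses amino acid shortage, was negative at -0.14 ± 0.044 (adjusted p = 0.0054) per the authors' deposited table. EIF2AK3, or PERK, the kinase of the endoplasmic reticulum, was at -0.27 ± 0.12 and did not pass (adjusted p = 0.0597) per the authors' deposited table, but was called at -0.33 with the trends removed (adjusted p = 0.0131). EIF2AK1, or HRI, which responds to haem shortage, was at 0.05 ± 0.022 and did not pass either (adjusted p = 0.0676) per the authors' deposited table.

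The scaffold complex eIF3, which holds the small subunit and the message together, was split. Its 12 measured subunits gave 4 positive, 4 negative and 4 uncalled genes around a median log2 fold change of -0.03. The backgrounds were 17.3% positive and 22.2% negative over all genes. They were 25.4% and 26.5% at or above the median level, so calls in both directions were common among genes that abundant. With errors not smaller than the median of their level, 4 of the 8 calls were left, those of EIF3A, EIF3D, EIF3I and EIF3K. On the positive side stood EIF3A, the largest subunit, at 0.15 ± 0.028 (adjusted p = 1.29e-06), EIF3E at 0.09 ± 0.034 (adjusted p = 0.0194) and EIF3L at 0.09 ± 0.030 (adjusted p = 0.0136) in the authors' deposited table. EIF3B, a scaffold subunit, was at 0.03 ± 0.013 (adjusted p = 0.0417) per the authors' deposited table. Removal of the length and GC trends ended the calls of EIF3A, EIF3E, EIF3K and EIF3G.

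On the negative side of eIF3 stood EIF3I at -0.26 ± 0.057 (adjusted p = 4.79e-05), EIF3D, which can itself bind capped messages, at -0.18 ± 0.048 (adjusted p = 7.46e-04), and EIF3K at -0.18 ± 0.062 (adjusted p = 0.0116) in the authors' deposited table. EIF3G was at -0.11 ± 0.040 (adjusted p = 0.0267) per the authors' deposited table. EIF3B, EIF3G and EIF3I form one module of the complex, and as deposited 2 of these 3 genes were negative and 1 positive. Of these, EIF3G turned to 0.0616 and was not called with the trends removed (adjusted p = 0.225), nor did it pass when centred on the median gene (adjusted p = 0.0953) or with the limit on the error (adjusted p = 0.0521). The subunits EIF3F, EIF3H, EIF3J and EIF3M were not called, at -0.05, -0.01, 0.06 and -0.05. The levels of the 12 genes, set per kilobase of the longest annotated transcript, ran from 18.4 (EIF3F) to 203 (EIF3I) CPM per kilobase, and the length of the transcript in use was not measured. EIF3C was not analysed here.

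The cap-binding complex and its helpers gave 2 positive, 2 negative and 5 uncalled genes of 9. That is near the backgrounds of 17.3% positive and 22.2% negative over all genes, or 25.4% and 26.5% at or above the median level. EIF4E, the protein that binds the cap, was at 0.10 ± 0.054 and did not pass (adjusted p = 0.17) per the authors' deposited table, and its relatives EIF4E2 (-0.06) and EIF4E3 (0.12) did not either. With the trends removed EIF4E was at -0.0913 and EIF4E3 at -0.0787, again not called. EIF4A2, a copy of the helicase that unwinds the leader of the message, was negative at -0.23 ± 0.048 (adjusted p = 1.22e-05) in the authors' deposited table and at -0.36 with the trends removed. EIF4B, which stimulates that helicase, was positive at 0.17 ± 0.035 (adjusted p = 9.06e-06) at 288 CPM, while its partner EIF4H was at 0.02 ± 0.034 (adjusted p = 0.727) per the authors' deposited table. EIF4A1 was not analysed here.

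Among the scaffold genes of this complex, EIF4G2, also named DAP5, which lacks the contact to EIF4E, had a log2 fold change of 0.16 at 2130 CPM in the authors' deposited table, with its adjusted p listed at 0. EIF4G1, the main scaffold, was at -0.06 at 1069 CPM (adjusted p = 4.57e-31), and EIF4G3 at -0.09 ± 0.045 did not pass (adjusted p = 0.137) per the authors' deposited table. The calls of EIF4G1 and EIF4G2 went with small errors, described below, and the value of EIF4G2 was 0.01 with the length and GC trends removed. The inhibitor EIF4ENIF1, which carries EIF4E into the nucleus and to stored messages, was at 0.14 ± 0.064 and was not called (adjusted p = 0.0927) per the authors' deposited table.

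The EIF4E-binding inhibitors that mTOR phosphorylates, outside the rule only through their symbols, were both positive. EIF4EBP1 had a log2 fold change of 0.38 ± 0.040 (1.30-fold) at 160 CPM (adjusted p = 2.77e-20) per the authors' deposited table, larger than any positive value of the 56 members. EIF4EBP2 was at 0.14 ± 0.052 at 234 CPM (adjusted p = 0.0242) per the authors' deposited table. With these genes counted, 18 members were positive and 15 negative.

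Both factors of subunit joining were negative by small amounts. EIF5B, the GTPase that joins the large subunit, was at -0.13 ± 0.050 (adjusted p = 0.0294) and EIF6, which keeps free large subunits from joining, at -0.13 ± 0.051 (adjusted p = 0.0397) in the authors' deposited table. Removal of the length and GC trends moved them apart, to -0.27 for EIF5B and 0.02 for EIF6. None of the 3 genes of eIF5A, the hypusine-bearing factor that helps ribosomes past difficult peptide bonds, was called: EIF5A was at -0.07 ± 0.037 (adjusted p = 0.135), EIF5A2 at 0.20 ± 0.11 (adjusted p = 0.169) and the intronless copy EIF5AL1 at 0.15 ± 0.074 (adjusted p = 0.103) per the authors' deposited table. EIF5AL1 may share reads with EIF5A, so its value is uncertain. EIF4A3, a relative of the initiation helicases that serves in the exon junction complex, was at -0.04 ± 0.039 and was not called (adjusted p = 0.481) per the authors' deposited table.

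The tRNA-delivering elongation factor eEF1A showed the widest gap between gene copies of the 7 pairs compared. EEF1A2, the copy known from muscle and neurons, was negative at -0.45 ± 0.047 (1.37-fold) at 699 CPM (adjusted p = 2.01e-20) per the authors' deposited table, the lowest value of any member. EEF1A1, the common copy, was at 0.04 at 2231 CPM (adjusted p = 1.57e-10) per the authors' deposited table. Its call ended with the trends removed (0.0022, adjusted p = 0.83) and with errors not smaller than the median of its level (adjusted p = 0.386). The log2 fold changes of EEF1A1 and EEF1A2 thus differed by 0.50. The next widest gaps were 0.27 in absolute size for EIF5A and EIF5A2, 0.24 for EIF4EBP1 and EIF4EBP2 and 0.15 for EIF4E and EIF4E2, and the other 3 pairs differed by 0.03 or less. Per kilobase of the longest annotated transcript, EEF1A1 stood at 502 and EEF1A2 at 175 CPM. EEF1A1 has processed copies elsewhere in the genome that can take or lend reads, and the sources used here do not say how multiply matching reads were counted.

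Of the eEF1B subunits, which reload eEF1A with GTP, EEF1G was negative at -0.18 ± 0.039 (adjusted p = 3.57e-05), EEF1D was negative at -0.10 ± 0.036 (adjusted p = 0.026) and EEF1B2 was not called at 0.05 ± 0.021 (adjusted p = 0.0856) in the authors' deposited table. EEF1D was at 0.02 with the trends removed, and EEF1G at -0.11. EEF1E1, whose protein is an accessory part of the tRNA synthetase complex despite its name, was positive at 0.32 ± 0.10 (1.25-fold) at 17.7 CPM (adjusted p = 0.00627) per the authors' deposited table, and it is the called member whose promoter, shown above, holds an E2F-like word.

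EEF2, the translocase that moves the ribosome by a codon, was the most abundant member at 4772 CPM, with a log2 fold change of -0.09 in the authors' deposited table and an adjusted p listed at 0. That direction turned with the length and GC trends removed, where EEF2 was at 0.0327, and on the ribosomal protein centre it was at -0.0118. Both values were called, the first positive and the second negative, but with the approximate error of 0.000258 that EEF2 had as deposited. The median error of genes of like level was 0.0371, and neither value was tested with it. EEF2K, the kinase that inactivates EEF2, was at 0.04 ± 0.061 (adjusted p = 0.682), and EEF2KMT, which methylates it, at 0.08 ± 0.091 (adjusted p = 0.547) per the authors' deposited table.

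Members with the pyrimidine tract at the start of the message stood on both sides. Of the 12 members with the tract shown above, 3 were positive, 5 negative and 4 not called in the authors' deposited table, and their median log2 fold change was -0.05. The 34 other members with a promoter window gave 9 positive, 7 negative and 18 uncalled genes, with a median of 0.03. The 12 members known as TOP messages gave 4 positive, 5 negative and 3 uncalled genes, with a median of -0.03. That list was written after the values were seen. The 78 ribosomal protein genes gave 0 positive and 24 negative (30.8%). The backgrounds for all these counts were 17.3% positive and 22.2% negative over all genes. At or above the median level they were 25.4% and 26.5%.

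Fold changes of the members went with the base composition of their transcripts. Across the 56 members, log2 fold change and GC content of the longest GENCODE transcript had a Pearson correlation of -0.51 (Spearman -0.47). This is a description across genes, which share the same libraries and are not independent, and across the 7650 genes at or above the median level with a transcript the same correlation was -0.32. Called positive members had a median GC content of 42.2%, called negative members one of 52.8%. For genes at or above the median level these medians were 43.3% and 54.6%. Of 22 members under 45% GC, 10 were positive and 3 negative, and of 9 members at or above 55% GC, 1 was positive and 6 negative. The shares of positive and negative calls at or above the median level were 38.0% and 12.5% under 45% GC and 13.4% and 44.9% at or above 55%. With length and GC trends removed, 28 members were called, 13 positive and 15 negative, or 46.4% positive (backgrounds 38.5%, 16.4% and 22.1%).

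**Figure D3:**
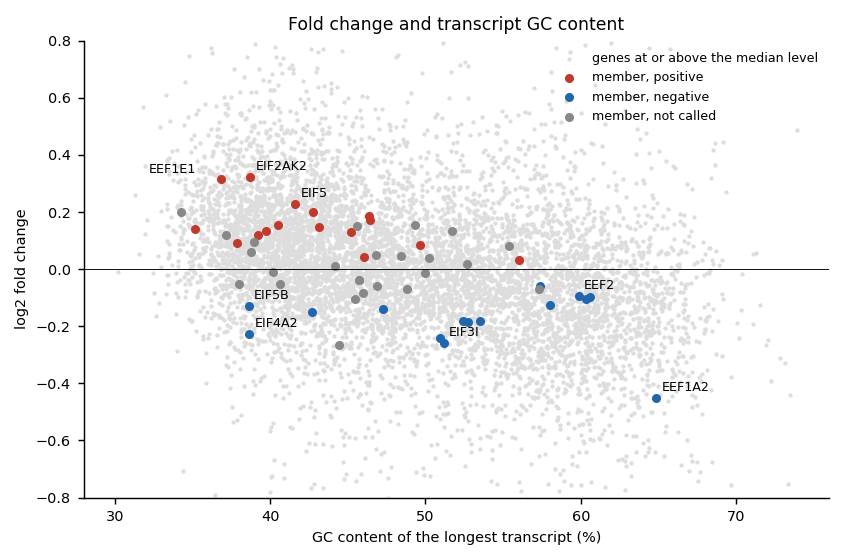
Deposited log2 fold change (y axis, genes beyond 0.8 in either direction not drawn) against GC content of the longest transcript in percent (x axis), for genes at or above the median level (light grey) and for the members coloured by call. Members with low GC content lie mostly above 0 and members with high GC content mostly below it, as do the grey points. EIF4A2 and EIF5B are GC-poor genes on the negative side.

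Against that trend stood some GC-poor members with negative values. Those called were 3 of the 22 under 45% GC, or 13.6%, near the 12.5% of such genes at or above the median level. These genes had a median log2 fold change of 0.08, so removing the GC trend lowers GC-poor genes as a rule. EIF4A2 (38.7% GC), EIF5B (38.6%) and EIF2S3 (42.7%) were negative as deposited and further below 0 with the trends removed, at -0.36, -0.27 and -0.18. GC contents and lengths are those of the longest annotated transcript, and the transcript in use was not measured. The values with the trends removed depend on that choice. The genes EIF2AK3 (-0.33), EIF3F (-0.21), EIF3M (-0.18), EIF4G3 (-0.16) and EIF3H (-0.10), not called as deposited, were called negative with the trends removed, and EIF1AD (0.18), EIF4ENIF1 (0.16) and EEF1B2 (0.11) positive. EIF1 and EIF1B kept 0.20 and 0.21, and EIF4B 0.14. Of the 56 members, 10 kept direction and call under every treatment that gave them a value, other than the demand for a 1.2-fold change, or 17.9%, against 25.1% of the 14777 genes with a transcript and 30.5% of those of at least median level. They were EIF1, EIF1B, EIF5, EIF4B, EIF4G2 and EEF1E1 on the positive side and EEF1A2, EIF4A2, EEF1G and EIF3I on the negative side. Of these, EIF4G2 was at only 0.0123 with the trends removed. It was called there with its small error of 0.000924, against a median error of 0.0360 for genes of like level. That value was not tested with the median error, so its place among the 10 rests on the small error.

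**Figure D4:**
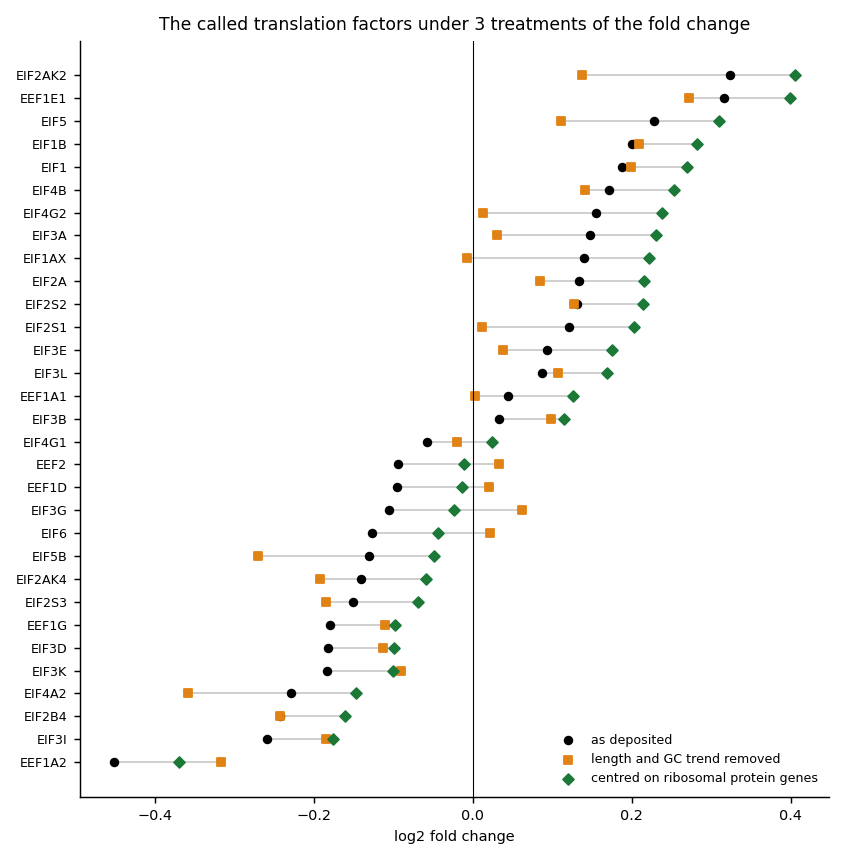
Log2 fold change (x axis) of the 31 called members (rows, ordered by deposited value) as deposited, with lowess trends on length and GC removed, and centred on the median ribosomal protein gene. EEF1A2, EIF3I and EIF4A2 stay below 0 and EIF1, EIF1B and EEF1E1 above 0 in all of these, whereas EEF2, EEF1D, EIF3G and EIF6 are among the genes that cross 0.

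Small errors marked 4 abundant members in the authors' deposited table. For EEF2, EIF4G2, EIF4G1 and EEF1A1 the approximate error was 0.695%, 2.56%, 11.5% and 16.8% of the median error of genes within 0.5 log2 CPM of each, so that small fold changes had extreme likelihood ratios, up to 132751 for EEF2. With errors not smaller than that median and the test recomputed, EIF4G2 (adjusted p = 9.85e-05) and EEF2 (adjusted p = 0.0314) were still called, and EIF4G1 (0.287) and EEF1A1 (0.386) were not. The members then gave 24 calls, 12 positive and 12 negative (backgrounds 39.3%, 17.1% and 22.2%). This limit on the error was chosen after seeing the data. It was not applied together with the trend removal or the centrings, which kept the small errors.

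Genes that overlap others can share reads, and the sources used here do not say whether the counting used strand. In GENCODE, 13 members share at least 10% of their exon bases with another gene. EEF1G shares 99.9% with the protein coding model AP002990.1 on the same strand, EIF3L 41.1% with AL022311.1 on the same strand and EEF1D 31.2% with AC067930.6 on the opposite strand. EEF1E1 shares 18.7% with the read-through gene EEF1E1-BLOC1S5 and EIF6 17.4% with AL121753.1, both on the same strand. The values of these genes are uncertain to that extent.

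Other genes of translation, from a list outside the rule, also moved both ways. Of 56 such genes 15 were positive, 10 negative and 31 not called in the authors' deposited table (backgrounds 17.3% positive and 22.2% negative, or 25.4% and 26.5% at or above the median level). With at least a 1.2-fold change 9 were called, or 16.1%, against 25.7% of all genes and 25.3% of those at or above the median level. Of the 9 genes listed under modification, 3 were positive, 1 negative and 5 not called. Of the 5 listed under stress phosphatases, 2 were positive, 1 negative and 2 not called. Enzymes that modify the factors were among those with the smallest p. DHPS, which makes the hypusine of eIF5A, was at 0.51 ± 0.070 (adjusted p = 6.95e-12) and DPH6, of the diphthamide pathway of EEF2, at 0.57 ± 0.10 (adjusted p = 3.35e-07), whereas DOHH, the other hypusine enzyme, was at 0.02 and did not pass (adjusted p = 0.809) per the authors' deposited table. MKNK2, a kinase of EIF4E, was negative at -0.34 ± 0.048 (adjusted p = 2.8e-11), and PPP1R15A, which directs a phosphatase to eIF2 alpha under stress, was negative at -0.40 ± 0.058 (adjusted p = 1.61e-10) per the authors' deposited table. TSC2, a brake on mTOR, was at -0.27 ± 0.049 (adjusted p = 6.14e-07) per the authors' deposited table. GFM2, a mitochondrial ribosome recycling factor, was at -0.37 ± 0.056 (adjusted p = 9.99e-10) per the authors' deposited table. The helicase gene DDX3X was at 0.35 ± 0.075 (adjusted p = 3.11e-05) per the authors' deposited table, and DHX9 at 0.23 with an error that was 18.1% of the median of its level.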

How the data were processed

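The data are RNA sequencing of 3 TFDP1 knockout and 3 control samples of eHAP cells. Tools listed in the submitters' processing notes are HISAT2, Trimmomatic, edgeR and featureCounts, with hg38 and dm6 as builds; for versions, counting settings and library scaling the sources used here give nothing. The authors deposited 1 table of the comparison, with log2 fold change and log2 CPM columns, p-value and adjusted p columns, and a likelihood ratio, a score per gene, per the file headers. No values per sample were used, so the count model could not be run; the authors' adjusted p under 0.05 was the call.

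Recomputed tests used log2 fold change over the approximate standard error, a normal test and Benjamini-Hochberg adjustment over all genes. They were run on simulated data whose noise had the median error of each level. That simulation did not cover the small errors of abundant genes described above. Lowess trends (span 0.3, statsmodels 0.14.6) used length and GC content of the longest transcript per symbol in GENCODE 29, found for 14777 genes (93.6%) and all 56 members. Promoter windows came from RefSeq. Python 3.11.15, pandas 2.3.3, numpy 2.4.6, scipy 1.17.1 and matplotlib 3.10.9 were used. The members and lists were chosen with earlier results of these data known. All members could be named; outside them the text names TFDP1 and the called genes of the other translation list with the smallest p, at most 8, besides DOHH, EIF4EBP1 and EIF4EBP2, named after their values were seen; the EEF1E1 promoter was likewise chosen after its values were seen. The alternatives were a stricter adjusted p, an adjustment over the rows held, a level filter, both centrings, trend removal, a 1.2-fold minimum, the mean in place of the median, and leaving out uncertain members; a lower limit on the error and the addition of EIF4EBP1 and EIF4EBP2 were chosen after seeing the data.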

Additional observations from a re-analysis of the deposited data

How the results depend on the processing

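An adjusted p of 0.01 left 20 called members, 9 of them negative, and a 1.2-fold minimum left 3, 2 positive and 1 negative, against 31 as deposited. That minimum left 9 of the other translation genes, 5 positive and 4 negative (16.1% of them, against 25.7% of all genes, 10.4% positive and 15.3% negative). Centring on the ribosomal protein median gave 27 positive and 5 negative members, 27 positive and 4 negative other translation genes, and a median member log2 fold change of 0.10. Under the other alternatives the counts over all members stayed within 1.5 times the deposited counts, and the median within the median approximate error. Counts of single role groups moved more: called genes of subunit joining numbered 0 of 2 when centred on the median gene and 1 with the trends removed, of eIF2 and tRNA delivery 2, against 4 as deposited, with the trends removed, of eIF3 4, against 8, and of the eEF1 complex 3, against 5, with the limit on the error. Removal of length and GC trends changed the sign of EEF2 (0.0327), EIF1AX (-0.0076), EEF1D (0.0198), EIF3G (0.0616) and EIF6 (0.0216). Of these only EEF2 was called there. Centring on ribosomal proteins changed the sign of EIF4G1 (0.0238), which was called. The calls of EEF2 and EIF4G1 used errors that were 0.695% and 11.5% of the median of their level. The cause of these changes was not tested. No paired analysis was possible because the table holds no values per sample, and for the same reason no replicate could be left out. At 32 to 64 CPM the approximate 95% bounds of a gene with the median error correspond to 1.10-fold, and at 512 to 1024 CPM to 1.06-fold.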

Other observations

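Rows that the rule leaves out as antisense genes or pseudogenes were scarce. EIF3J-AS1 had 9.04 CPM and a log2 fold change of -0.06 (adjusted p = 0.744) in the authors' deposited table, next to EIF3J at 0.06. EIF1B-AS1 (0.350 CPM), EIF1AX-AS1 (0.184 CPM), EIF3IP1 (0.403 CPM) and EEF1DP3 (0.165 CPM) had log2 fold changes of 1.22, 1.44, -0.75 and 0.48 there, and none passed an adjusted p of 0.05.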
